A study of Mus musculus with 12 samples.

Results

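The genes of the tricarboxylic acid (TCA) cycle and of pyruvate entry into it were examined in mouse quadriceps muscle after treatment with AICAR, GW1516 or both. The set is a list of 31 genes taken by gene symbol and not by a cut on their measured values. It was drawn up with earlier results of these data known. Of these, 29 had a probe set named for them alone on the array, all 29 were bright enough to be tested, and they are part of 12771 genes tested in all. Ogdhl and Mpc2 carried no probe set named for them alone here and are not analysed. All mice were C57Bl/6J and were treated for 6 days. Mice of the AICAR group received 250 mg/kg/day of AICAR, those of the GW1516 group received 5 mg/kg/day of GW1516, and a further group, called the combination, received both drugs at these doses. The controls received vehicle. The sources used here give neither sex nor age. Each group had 3 arrays, each hybridised with a pool of RNA from 3 mice. Whether pools of 1 group came from separate mice is not stated in the labels, so the p-values reflect only how these pools vary.

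AICAR is an adenosine analogue that is converted in cells to a mimic of AMP and activates the AMP-activated protein kinase. GW1516 is a synthetic ligand that activates PPARδ, a nuclear receptor known for its control of fatty acid use in muscle. Pyruvate made by glycolysis is carried into mitochondria, where the pyruvate dehydrogenase complex turns it into acetyl-CoA and pyruvate carboxylase turns it into oxaloacetate. The cycle then oxidises the acetyl group and feeds electrons to the respiratory chain. Transaminases, malic enzymes and glutamate dehydrogenase move carbon into and out of the cycle and tie it to amino acid use. Skeletal muscle is rich in these enzymes, and endurance training is known to raise their activity.

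The values are MAS5 signals, a summary of the brightness of each probe set on a linear scale, with every array scaled to a trimmed mean of 200. Signals of 1 probe set can be compared between arrays but not with those of another gene. The second GW1516 array stood apart from the others. Its score on the first principal component was 45.9, against -18.7 to 6.77 for the other 11 arrays, and results that rest on it are given with and without it. Fewer cells of a type and less RNA per cell cannot be told apart in this whole muscle RNA.

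No gene of the set passed the test in any comparison. With limma's moderated test and adjustment over all genes (called at an adjusted p under 0.05), 0 of 29 were called in AICAR, where 0.00783% of all genes were called. In GW1516 0 of 29 were called, against 0.094% of all genes, and in the combination 0 of 29, against 0.258%. The smallest adjusted p of the set was 0.71 for AICAR, 0.433 for GW1516 and 0.26 for the combination. At an unadjusted p under 0.05 there were 2 genes of the set in AICAR (background 6.93% of all genes), 4 in GW1516 (background 9.64%) and 2 in the combination (background 10.9%). Counts of 2 or 4 among 29 genes are near what these background shares give. A moderated F test over the 4 groups called 0 of 29, against 0.11% of all genes, and at an unadjusted p under 0.05 it gave 1 gene of the set (background 10.4%). That gene was Gpt2, with an adjusted p of 0.387 in limma's F test.

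The typical precision of these genes was better than that over all genes, so the intervals also limit how far each signal could have moved. They refer to MAS5 signal, gene by gene, and are not adjusted for the 29 genes. The median standard error of a difference was 0.0886 on the log2 scale for the set and 0.188 over all genes. The 95% interval of the difference from vehicle lay within 0.5 of 0 on the log2 scale for 22 of 29 genes in AICAR, 23 in GW1516 and 21 in the combination. The genes with wider intervals in all 3 comparisons were Aco1, Idh1, Idh2, Me2, Pcx and Pck2. For Cs, citrate synthase, the interval ran from -0.28 to 0.10 in AICAR, from -0.30 to 0.08 in GW1516 and from -0.19 to 0.19 in the combination.

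The median log2 difference from vehicle over the 29 genes was -0.01 in AICAR, -0.06 in GW1516 and 0.05 in the combination. Over all genes it was 0.01 in AICAR, -0.01 in GW1516 and -0.0048 in the combination. Differences were above 0 for 12 of 29 genes in AICAR (52% of all genes), for 10 in GW1516 (47.1% of all genes) and for 20 in the combination (49.1% of all genes). Several probe sets, some of them dim, were present for 18 genes of the set. Their probe sets differed in sign for 8 genes in AICAR, 8 in GW1516 and 13 in the combination. The counts above 0 thus depend on the probe set used. The spread between arrays was widest in GW1516. The median over the set relative to the vehicle mean was -0.05, -0.01 and -0.01 on the AICAR arrays. It was 0.08, -0.22 and -0.12 on the GW1516 arrays, and 0.09, -0.0037 and -0.0031 on the combination arrays, against 0.03, 0.01 and -0.05 on the vehicle arrays. The GW1516 group thus held both the second highest and the lowest arrays of the set. Without the second GW1516 array, 15 of 29 genes were above 0 in GW1516 (50.9% of all genes) and the median was 0.0027.

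**Figure D1:**
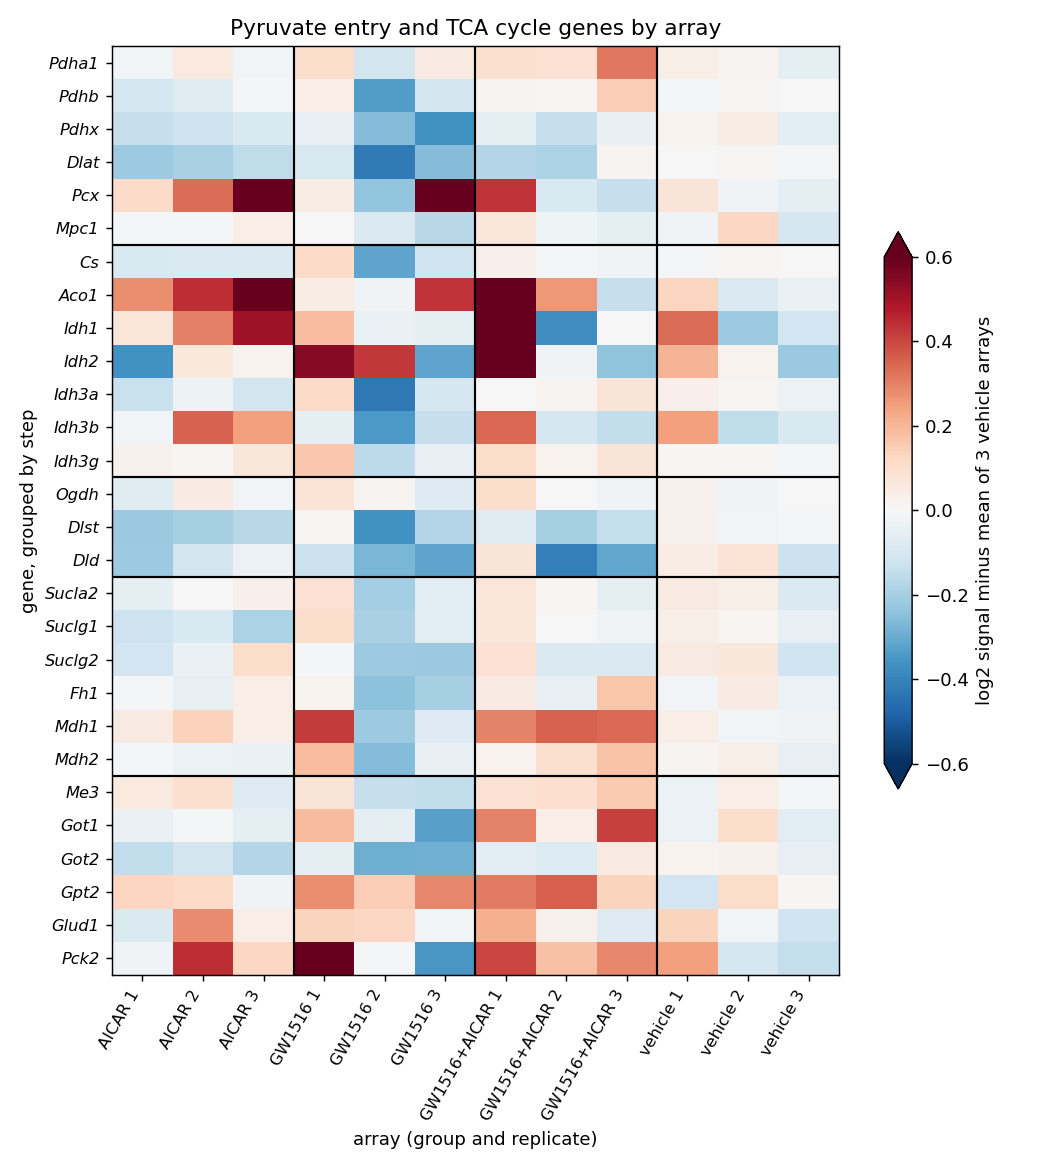
Log2 signal of 28 genes of the set (rows, grouped by step) on the 12 arrays (columns), minus the mean of the 3 vehicle arrays, with colours clipped at 0.6 above and below 0. Me2, which is dim, is left off; the second GW1516 array is below the vehicle mean for most genes, while the first is above it for most.

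**Figure D2:**
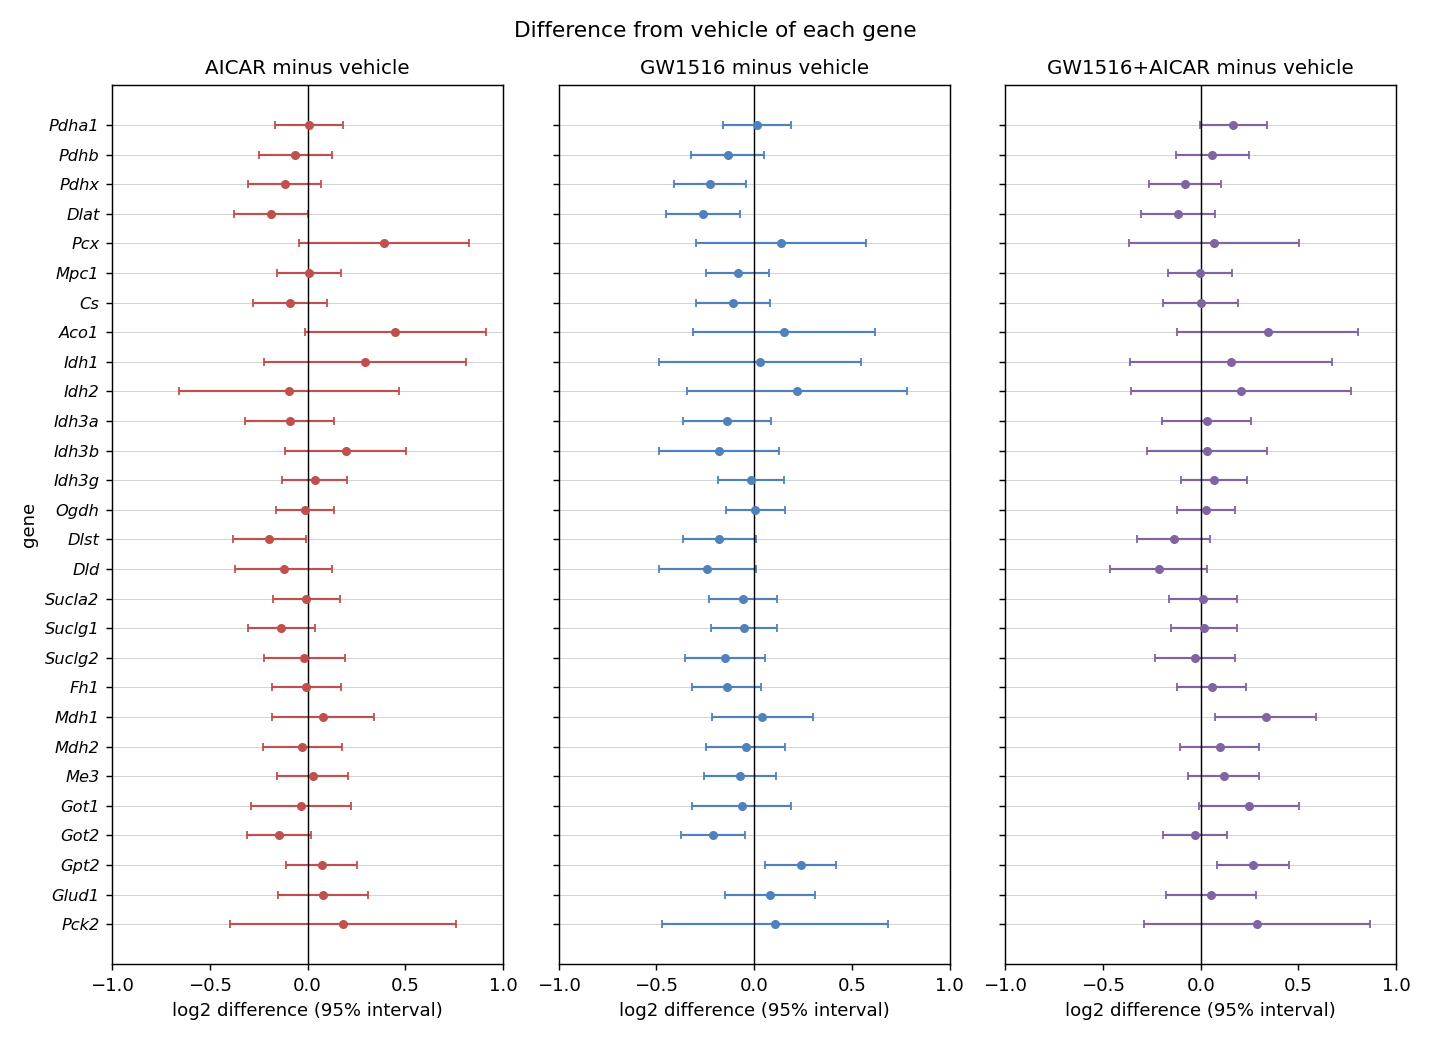
Log2 difference from vehicle (points) with its 95% interval from limma (bars) for 28 genes in AICAR, GW1516 and the combination, with 3 arrays in each group. Me2 is left off; intervals are narrow for most genes and widest for Aco1, Idh1, Idh2, Pcx and Pck2, and none of the genes passed the adjusted threshold.

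Among pyruvate entry genes, Dlat and Pdhx differed most from vehicle in GW1516. Pcx did so in AICAR and Pdha1 in the combination. The products of Dlat and Pdhx are the acetyltransferase of the pyruvate dehydrogenase complex and the protein that holds its dihydrolipoamide dehydrogenase. Dlat signals were 1978, 2008 and 2072 on the AICAR arrays, 2153, 1713 and 1924 on the GW1516 arrays, and 2036, 2014 and 2326 on the combination arrays, against 2301, 2315 and 2287 on the vehicle arrays. All 3 AICAR arrays and all 3 GW1516 arrays were below the vehicle arrays, while the combination overlapped vehicle. The log2 difference of Dlat was -0.19 ± 0.0882 in AICAR (SE, n = 3 against 3 arrays, limma adjusted p = 0.721), -0.26 ± 0.0882 in GW1516 (adjusted p = 0.433) and -0.12 ± 0.0882 in the combination (adjusted p = 0.665). Without the second GW1516 array, the GW1516 difference was -0.18 and the arrays were still all below vehicle. The other probe sets of Dlat gave -0.13 and -0.10 in AICAR and -0.33 and -0.32 in GW1516, but -0.09 and 0.02 in the combination.

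Pdhx signals were 1221, 1231 and 1263 on the AICAR arrays, 1296, 1120.3 and 1044 on the GW1516 arrays, and 1296, 1219 and 1302 on the combination arrays, against 1363, 1387 and 1283 on the vehicle arrays. AICAR lay below vehicle without overlap, and GW1516 and the combination each overlapped it. The difference was -0.12 in AICAR (adjusted p = 0.812), -0.23 ± 0.086 in GW1516 (adjusted p = 0.466) and -0.08 in the combination (adjusted p = 0.773).

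The catalytic subunits of pyruvate dehydrogenase itself, Pdha1 and Pdhb, did not pass the test in any group. Pdha1 signals were 9231, 9729 and 9254 on the AICAR arrays, 10045.5, 8660.0 and 9705 on the GW1516 arrays, and 9980.4, 9950.4 and 11655 on the combination arrays, against 9588, 9452 and 9012 on the vehicle arrays. Pdhb signals were 4676, 4795 and 5015 on the AICAR arrays, 5178, 3994 and 4671 on the GW1516 arrays, and 5098, 5074 and 5579 on the combination arrays, against 5018, 5067 and 5032 on the vehicle arrays. Pdhb was below vehicle without overlap in AICAR (-0.06, adjusted p = 0.916) and overlapped it in GW1516 (-0.14, adjusted p = 0.631), and Pdha1 overlapped vehicle in AICAR (0.01) and in GW1516 (0.02). In the combination both genes were above vehicle on all 3 arrays, Pdha1 by 0.17 ± 0.0808 (adjusted p = 0.478) and Pdhb by 0.06 ± 0.0872 (adjusted p = 0.847). The other probe set of Pdha1 gave 0.05 in the combination and that of Pdhb gave -0.02, and both overlapped vehicle. The subunits of this complex thus had differences on both sides of 0 in the combination.

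Mpc1 encodes a subunit of the mitochondrial pyruvate carrier. Its signals were 5602, 5606 and 5796 on the AICAR arrays, 5627, 5308 and 5032 on the GW1516 arrays, and 5933, 5536 and 5420.2 on the combination arrays, against 5557, 6139 and 5259 on the vehicle arrays. Every treated group overlapped vehicle, with differences of 0.01 in AICAR, -0.09 in GW1516 and -0.0037 in the combination.

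Pcx encodes pyruvate carboxylase, which refills the cycle with oxaloacetate and is also abundant in fat cells. Its signals were 1188, 1385 and 1814 on the AICAR arrays, 1131, 934 and 1672 on the GW1516 arrays, and 1484, 1031 and 997 on the combination arrays, against 1159, 1083 and 1056 on the vehicle arrays. AICAR was above vehicle without overlap, by 0.39 ± 0.203 (adjusted p = 0.746), and the other groups overlapped vehicle. Markers of fat cells varied over the same arrays. The median of 11 fat cell markers relative to the vehicle mean was -0.10, 1.01 and 1.59 on the AICAR arrays, 0.62, -0.21 and 1.12 on the GW1516 arrays, and 1.345, 0.64 and -0.13 on the combination arrays, against 0.47, -0.43 and -0.15 on the vehicle arrays. The array with the highest fat cell markers was also the one with the highest Pcx in each of the 4 groups. The part of fat cells in these Pcx values was not tested.

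The first steps of the cycle, from citrate synthase to isocitrate dehydrogenase, gave no gene that passed the test. Cs signals were 7918, 7966 and 7953 on the AICAR arrays, 9140.4, 6782 and 7762 on the GW1516 arrays, and 8622, 8390.1 and 8318 on the combination arrays, against 8372, 8514 and 8453 on the vehicle arrays. AICAR lay below vehicle without overlap, by a small amount (-0.09 ± 0.0886, adjusted p = 0.875), and the combination overlapped vehicle (-0.00065, adjusted p = 0.998). In GW1516 the difference was -0.11 with all arrays and -0.0039 without the second one.

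Idh3a, Idh3b and Idh3g encode the subunits of the NAD-dependent isocitrate dehydrogenase. Idh3a signals were 8685, 9335 and 8840.3 on the AICAR arrays, 10339, 7076 and 8879.5 on the GW1516 arrays, and 9515, 9657.5 and 10044.8 on the combination arrays, against 9736, 9575 and 9301 on the vehicle arrays. Idh3b signals were 2643, 3419 and 3179.9 on the AICAR arrays, 2575, 2107 and 2431 on the GW1516 arrays, and 3401, 2499.7 and 2417 on the combination arrays, against 3170.3, 2406 and 2516 on the vehicle arrays. All 3 subunits overlapped vehicle in GW1516, and Idh3g was above vehicle without overlap in AICAR (0.04) and in the combination (0.07). Set directly against GW1516, AICAR was higher for Idh3b without overlap, by 0.37 ± 0.144 (adjusted p = 0.497). The other probe sets of Idh3b differed in sign: against vehicle they gave 0.47 and -0.88 in AICAR, and averaged over its probe sets the difference between AICAR and GW1516 was -0.04. Against GW1516 they gave 0.39 and -0.89 in AICAR. The probe set on the negative side was dim, with signals of 7.57 to 71.3.

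Idh1 and Idh2, the cytosolic and mitochondrial NADP-dependent isocitrate dehydrogenases, and Aco1, the cytosolic aconitase that also acts as an iron regulatory protein, were among the most variable genes of the set. Idh2 signals were 1035, 1391 and 1349.9 on the AICAR arrays, 1941, 1783 and 1069.7 on the GW1516 arrays, and 2456, 1309.6 and 1125 on the combination arrays, against 1534, 1348 and 1139 on the vehicle arrays. Every group overlapped the others, and the differences were -0.09 in AICAR, 0.22 in GW1516 and 0.21 in the combination, each with a standard error of 0.262. Aco1 signals were 257, 288 and 327 on the AICAR arrays, 219, 209 and 286 on the GW1516 arrays, and 398, 254 and 192 on the combination arrays, against 231, 199.5 and 206 on the vehicle arrays. AICAR was above vehicle without overlap (0.45 ± 0.216, adjusted p = 0.73). The other probe sets of Aco1 gave -0.04 and 0.13 in AICAR, and both overlapped vehicle there. In GW1516 they gave -0.25 and -0.27, against 0.15 for the probe set used. In the combination they gave 0.30 and -0.04, against 0.34. The first of each pair was dim, with signals of 23.8 to 59.9. Idh1 ranged from 483 to 655 in AICAR, 442 to 523 in GW1516 and 355 to 823 in the combination, against 395 to 581 in vehicle. Aco1 and Idh1 were highest, within AICAR, within the combination and within vehicle, on the array with the highest fat cell markers, and the part of fat cells in their values was not tested.

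The oxoglutarate dehydrogenase complex contains Ogdh, its catalytic subunit, Dlst, its succinyltransferase, and Dld, the dehydrogenase it shares with the pyruvate complex. Ogdh signals were 4767, 5184 and 4952.5 on the AICAR arrays, 5314, 5064 and 4749 on the GW1516 arrays, and 5398, 5011 and 4943 on the combination arrays, against 5098, 4938 and 5009 on the vehicle arrays. It was the steadiest gene of the set, with differences of -0.01 in AICAR, 0.01 in GW1516 and 0.03 in the combination, each with a standard error of 0.0696. Dlst signals were 2120.2, 2157 and 2201 on the AICAR arrays, 2488, 1920.5 and 2187 on the GW1516 arrays, and 2353, 2154 and 2242 on the combination arrays, against 2521, 2448 and 2449.8 on the vehicle arrays. AICAR and the combination lay below vehicle without overlap and GW1516 overlapped it. The Dlst difference was -0.20 ± 0.087 in AICAR (adjusted p = 0.71), -0.18 ± 0.087 in GW1516 (adjusted p = 0.535) and -0.14 ± 0.087 in the combination (adjusted p = 0.593). The other probe sets of Dlst gave 0.14 and 0.04 in AICAR, and 0.17 and -0.16 in the combination. Dld signals were 1629.7, 1754 and 1848 on the AICAR arrays, 1735, 1566 and 1521 on the GW1516 arrays, and 1999.95, 1425 and 1527 on the combination arrays, against 1956, 2009 and 1732 on the vehicle arrays. Dld overlapped vehicle in every group, with differences of -0.12 in AICAR, -0.24 ± 0.115 in GW1516 (adjusted p = 0.526) and -0.22 ± 0.115 in the combination (adjusted p = 0.52).

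The later steps run from succinyl-CoA ligase through fumarase to malate dehydrogenase. Of their 6 genes, differences from vehicle were above 0 for 1 in AICAR, 1 in GW1516 (4 without the second array) and 5 in the combination. Mdh1, the cytosolic malate dehydrogenase of the malate-aspartate shuttle, had the largest of them. Its signals were 7663, 8133 and 7590.2 on the AICAR arrays, 9877, 6337 and 7003 on the GW1516 arrays, and 9075, 9442 and 9353.5 on the combination arrays, against 7583, 7295 and 7263 on the vehicle arrays. The combination arrays were tightly grouped and all above vehicle, whereas the GW1516 arrays spanned the values of every other group. The Mdh1 difference was 0.33 ± 0.121 in the combination (1.26-fold, adjusted p = 0.33), 0.08 in AICAR (adjusted p = 0.925) and 0.04 in GW1516 (adjusted p = 0.942). The combination difference passed the threshold when the first GW1516 array was left out (adjusted p = 0.0355) and when the combination and vehicle arrays were fitted alone (adjusted p = 0.0284). Both fits keep the difference of 0.33. They change the estimate of the spread, to which the first GW1516 array adds the highest signal. They also refit all other genes, on which the adjustment of p rests. Leaving out any other array called 0 genes of the set in this comparison. Over all genes, leaving out each array in turn called 10 to 95 here. The other probe sets of Mdh1 differed in direction in the combination: they gave 0.37, -0.21 and -0.28. The probe set giving 0.37 was dim, with signals of 44.2 to 109. Those below 0 were brighter, at 1537 to 2492 and 2389 to 3966, and opposite to the probe set used.

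Mdh2, the mitochondrial malate dehydrogenase, ranged from 11675 to 11894 in AICAR, 9996 to 13614 in GW1516 and 12170.4 to 13507 in the combination, against 11565 to 12263 in vehicle. Suclg1, the subunit common to both succinyl-CoA ligases, ranged from 4383 to 4688 in AICAR, 4365 to 5375 in GW1516 and 4916 to 5257 in the combination, against 4820.3 to 5121 in vehicle. AICAR was below vehicle without overlap for Suclg1 (-0.13, adjusted p = 0.759), and every treated group overlapped vehicle for Mdh2. Sucla2 and Suclg2, the ADP-forming and GDP-forming partners of Suclg1, and Fh1, fumarase, overlapped vehicle in every group. Sucla2 ranged from 6797 to 8350.2, Suclg2 from 962 to 1207 and Fh1 from 3833 to 5099.7 over the 12 arrays. For each of these 3 genes the lowest or next lowest value was on the second GW1516 array.

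**Figure D3:**
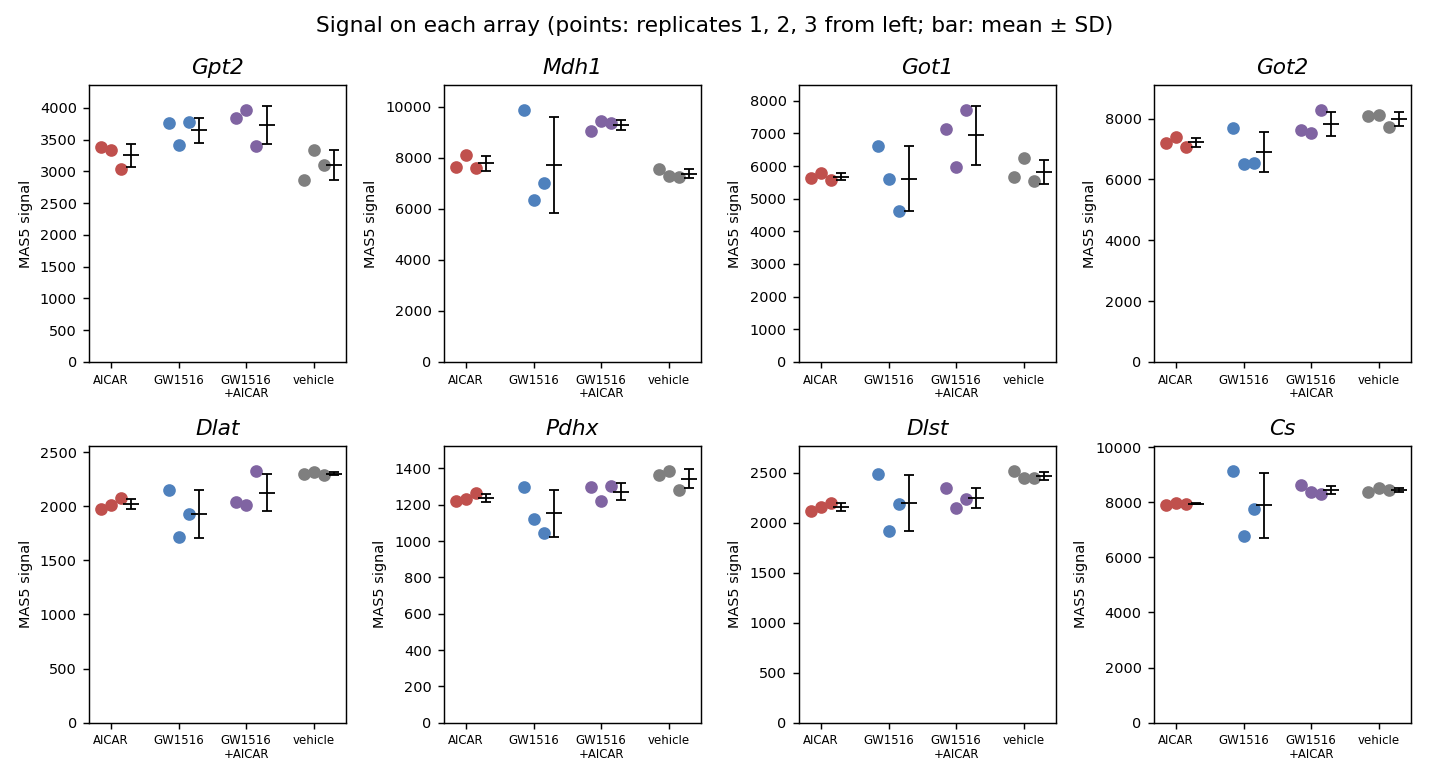
MAS5 signal of Gpt2, Mdh1, Got1, Got2, Dlat, Pdhx, Dlst and Cs on each array (points, 3 for each group) with the mean and SD beside them, on linear axes that start at 0. The combination arrays of Mdh1 lie between 9075 and 9442, above all vehicle arrays, and the GW1516 arrays are the most spread for Mdh1, Dlst and Cs.

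A transaminase gene, Gpt2, had the smallest p of the set in the combination. Gpt2 encodes the mitochondrial alanine aminotransferase, which links pyruvate and alanine. Its signals were 3377, 3342 and 3042 on the AICAR arrays, 3755, 3422 and 3772 on the GW1516 arrays, and 3834, 3964 and 3394 on the combination arrays, against 2856, 3332 and 3101 on the vehicle arrays. Both groups that received GW1516 lay above vehicle without overlap, and AICAR overlapped it. The difference was 0.24 ± 0.0852 in GW1516 (adjusted p = 0.436) and 0.27 ± 0.0852 in the combination (adjusted p = 0.26), but 0.07 in AICAR (adjusted p = 0.893). Without the second GW1516 array the GW1516 difference was 0.28 (adjusted p = 0.508). The other probe sets of Gpt2 were on the same side of 0, at 0.28, 0.05 and 0.23 in AICAR, 0.17, 0.0019 and 0.06 in GW1516, and 0.34, 0.02 and 0.23 in the combination. Each of these was higher in AICAR than in GW1516, opposite to the probe set used, so the order of the single treatments rested on that probe set.

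Got1 and Got2 encode the cytosolic and mitochondrial aspartate aminotransferases, the pair that works with Mdh1 and Mdh2 in the malate-aspartate shuttle. Got2 signals were 7196, 7380.2 and 7070.0 on the AICAR arrays, 7676, 6511 and 6532 on the GW1516 arrays, and 7625, 7541 and 8278 on the combination arrays, against 8099, 8122 and 7709 on the vehicle arrays. AICAR and GW1516 each lay below vehicle without overlap, and the combination overlapped it. The difference was -0.14 ± 0.0765 in AICAR (adjusted p = 0.75), -0.21 ± 0.0765 in GW1516 (adjusted p = 0.436) and -0.03 in the combination (adjusted p = 0.919). Averaged over its probe sets, the GW1516 difference of Got2 was 0.09, on the other side of 0. The other probe sets of Got2 gave -0.06 and 0.54 in GW1516, and that giving 0.54 was dim, with signals of 23.2 to 73.0. Got1 signals were 5648, 5783 and 5585 on the AICAR arrays, 6618, 5592 and 4629.95 on the GW1516 arrays, and 7131, 5964 and 7712 on the combination arrays, against 5668, 6242 and 5538 on the vehicle arrays. Got1 overlapped vehicle in all 3 groups, with 0.25 ± 0.118 in the combination (adjusted p = 0.475), -0.03 in AICAR and -0.06 in GW1516.

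Promoter sequences were compared because GW1516 acts through a nuclear receptor. In windows of 250 bases before to 50 bases after each gene start, from RefSeq on GRCm38.p6, 29 of the 31 listed genes had 37 promoters. The element DR1, AGGTCANAGGTCA, which PPAR and RXR receptors bind together, was in 0 of 37 and in 0.0396% of 32851 promoters. The element of the oestrogen-related receptors, TNAAGGTCA, was in 0 of 37 and in 1.28% of all promoters. The 6-base motif AGGTCA, which lies within both and was looked for after they gave no match, was in 9 of 37 promoters, or 24.3%, and in 16.3% of all. All motifs were searched on both strands, and no match says only that these letters are not in these windows. The genes with AGGTCA were Idh3g, Ogdh, Ogdhl, Sucla2, Fh1, Pcx, Got1, Got2 and Mpc1. The 250 bases before the start are shown for Got2 (chr8:95888402-95888651, minus strand) and Got1 (chr19:43524606-43524855, minus strand), the aminotransferase pair described above, with the motif, or its reverse complement in Got2, in capitals.
Got2: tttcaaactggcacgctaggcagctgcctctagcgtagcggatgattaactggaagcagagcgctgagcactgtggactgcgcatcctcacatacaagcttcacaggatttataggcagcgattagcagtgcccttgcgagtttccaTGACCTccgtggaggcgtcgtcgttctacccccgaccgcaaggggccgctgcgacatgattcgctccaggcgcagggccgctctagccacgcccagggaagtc
Got1: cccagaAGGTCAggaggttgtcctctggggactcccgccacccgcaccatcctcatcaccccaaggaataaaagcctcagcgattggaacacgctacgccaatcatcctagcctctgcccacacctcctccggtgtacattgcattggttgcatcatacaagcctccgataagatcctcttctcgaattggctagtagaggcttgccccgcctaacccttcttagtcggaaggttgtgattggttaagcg
Counted in bases from the gene start, the motif begins at -103 in Got2, where it is on the opposite strand, and at -244 in Got1. A match is a description of the letters and was not tested as a binding site.

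The other genes that move carbon in and out of the cycle were Glud1, Me3, Pck2 and Me2. Glud1, glutamate dehydrogenase, had signals of 1816, 2346 and 1983 on the AICAR arrays, 2115, 2098 and 1905 on the GW1516 arrays, and 2231, 1962 and 1826 on the combination arrays, against 2117, 1906 and 1775 on the vehicle arrays. Its differences were 0.08 in AICAR, 0.08 in GW1516 and 0.05 in the combination, with full overlap. Me3, the mitochondrial NADP-dependent malic enzyme, ranged from 892 to 1005 in AICAR, 848 to 991 in GW1516 and 1001 to 1049.6 in the combination, against 919 to 968 in vehicle. It was above vehicle without overlap in the combination (0.12, adjusted p = 0.657). Pck2, the mitochondrial phosphoenolpyruvate carboxykinase, was dim, at 55.4 to 113 over the 12 arrays, and overlapped in every group. Me2, the NAD-dependent malic enzyme, was near the lower limit of use, a mean signal of 28.2, with 10.7, 5.26 and 55.1 on the AICAR arrays, 40.8, 27.9 and 29.3 on the GW1516 arrays, and 44.5, 29.3 and 44.5 on the combination arrays, against 48.1, 32.8 and 47.5 on the vehicle arrays. Its AICAR difference of -1.53 ± 0.694 (adjusted p = 0.713) rested on 2 dim arrays, while the third AICAR array was the brightest of all 12.

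Groups that did not overlap were counted over the whole set, on the probe set used for each gene. In AICAR 4 of 29 genes lay above vehicle on all arrays (Aco1, Idh3g, Mdh1 and Pcx), where 9.3% of all genes did. There were 7 below (Cs, Dlst, Suclg1, Pdhb, Pdhx, Dlat and Got2), where 9.03% of all genes were. In GW1516 Gpt2 alone was above (background 6.3%) and Dlat and Got2 were below (background 7.91%). Without the second GW1516 array Pdha1 joined Gpt2, 2 above and 2 below, with backgrounds of 11.8% and 12%. In the combination 6 were above (Idh3g, Mdh1, Me3, Pdha1, Pdhb and Gpt2; background 8.9%) and 1 was below (Dlst; background 9.69%). These genes share arrays and enzyme complexes and are not independent of each other, and 0 of them passed the adjusted test.

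**Figure D4:**
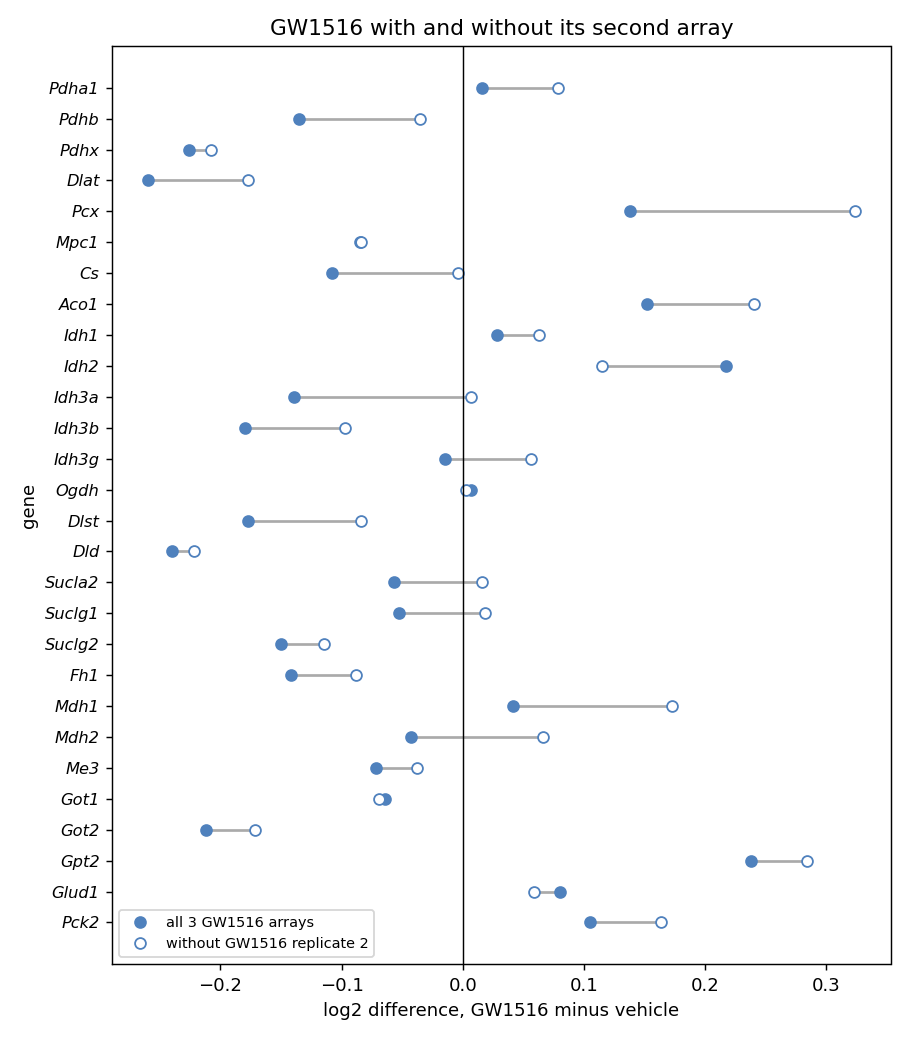
Log2 difference of GW1516 from vehicle for 28 genes, with all 3 GW1516 arrays (filled points) and without the second one (open points). Me2 is left off; most genes are higher without that array, while Pdhx, Dld, Mpc1, Ogdh and Got1 stay near their first value.

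The combination was next set directly against each single treatment. Against AICAR, 21 of 29 differences were above 0, where 46.9% of all genes were, and the median was 0.07. The combination lay above AICAR on all arrays for 10 genes, where 6.8% of all genes did, and below it for 0, where 7.68% did. The 10 genes were Cs, Idh3a, Suclg1, Mdh1, Mdh2, Pdha1, Pdhb, Got1, Got2 and Gpt2, and they include genes of every step except the oxoglutarate dehydrogenase complex. With limma 0 of 29 were called (background 0.0313%), and 2 had an unadjusted p under 0.05 (background 7.32%). Those were Got1, at 0.28 ± 0.118, and Gpt2, at 0.20 ± 0.0852, both with an adjusted p of 0.666. For Gpt2, the other probe sets gave 0.07, -0.04 and -0.01. Those of Mdh1 gave -0.12, -0.11 and -0.22, opposite to the probe set used. The other probe set of Mdh2 gave -0.01, and those of Got2 gave 0.22 and -0.09. For Cs, Idh3a, Pdha1 and Pdhb the other probe sets were also above 0. Skeletal muscle markers were also higher in the combination than in AICAR, 14 of 14 with a median of 0.12, and their part in the values of the set was not tested.

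Against GW1516, 26 of 29 differences were above 0 (52.1% of all genes) with a median of 0.14, or 23 of 29 with a median of 0.09 without the second GW1516 array (48.5% of all genes). Me3 alone did not overlap, lying above GW1516 (background 6.77%, and 0 below against 6.08%), and it did so without the second GW1516 array too (1 above, background 10.5%, and 0 below, background 12.2%). The smallest p was that of Got1 (0.31 ± 0.118, adjusted p = 0.394), then Mdh1 (0.29 ± 0.121, adjusted p = 0.442). The test called 0 of 29 (background 0%), and 6 had an unadjusted p under 0.05 (Fh1, Got1, Got2, Mdh1, Me3 and Pdhb; background 10.4%). Mdh1 passed the threshold here when the first GW1516 array was left out (0.48, adjusted p = 0.0257). That fit called 10 genes over all genes, against 0 with all arrays. The array left out had the highest Mdh1 signal (9877), above the combination arrays (9075 to 9442). Leaving out the second GW1516 array instead, which had the lowest Mdh1 signal (6337), called 0 genes of the set. For Mdh1 it raised GW1516 against vehicle from 0.04 to 0.17, so the combination differed less from GW1516. Between AICAR and GW1516, 21 of 29 differences were above 0 (55.7% of all genes), but 14 of 29 without the second GW1516 array (51.7% of all genes). Idh3b was above GW1516 without overlap (background 8.15%) and Gpt2 below it (-0.17, adjusted p = 0.557; background 6.48%). For Gpt2, the other probe sets gave 0.11, 0.05 and 0.18, and the mean over its probe sets was 0.04. Without the second GW1516 array Idh3b was above (background 12.9%) and Gpt2 and Suclg1 were below (background 12.8%). The test called 0 of 29 (background 0%), and Idh3b alone had an unadjusted p under 0.05 (background 9.15%).

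The interaction asks whether the combination departs from the sum of the separate differences, as combination minus AICAR minus GW1516 plus vehicle. It was above 0 for 24 of 29 genes (49.5% of all genes) with a median of 0.15, and for 21 with a median of 0.09 without the second GW1516 array. The test called 0 of 29 (background 0%), and 3 had an unadjusted p under 0.05 (background 6.64%). Got2 (0.33 ± 0.108), Dlat (0.33 ± 0.125) and Pdhx (0.26 ± 0.122) were those 3, with adjusted p-values of 0.723, 0.723 and 0.746. For Got2 and Dlat both single treatments were below vehicle and the combination was nearer to it. Averaged over its probe sets, the interaction of Got2 was -0.0054, and this average includes a dim probe set with signals of 23.2 to 73.0.

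Of 33 genes listed as neighbours of this pathway, 29 were tested, among them the succinate dehydrogenase subunits, the kinases and phosphatases of pyruvate dehydrogenase, lactate dehydrogenases and carriers. In the combination 1 of 29 passed the test and it was Pdk4 (background 0.258%), and 0 of 29 did in AICAR or in GW1516. Without the second GW1516 array, Pdk4 and Me1 passed in the combination. Over all genes that fit called 95 in the combination, against 33 with all arrays. At an unadjusted p under 0.05 there were 1 in AICAR (background 6.93%), 4 in GW1516 (background 9.64%) and 5 in the combination (background 10.9%). Pdk4, the kinase that inactivates pyruvate dehydrogenase, had signals of 3459, 4264 and 2834 on the AICAR arrays, 5172, 10276 and 5612 on the GW1516 arrays, and 8196, 5353 and 6321 on the combination arrays, against 3319.8, 2119.95 and 2554 on the vehicle arrays. Both GW1516-treated groups lay above vehicle without overlap. Pdk4 rose in the combination by 1.32 ± 0.243 (2.49-fold, adjusted p = 0.0466), and the adjusted p ranged from 0.00356, without the second GW1516 array, to 0.188 over the alternatives tried. In GW1516 the difference was 1.35 ± 0.243 (adjusted p = 0.0712), or 1.04 without the second array, and in AICAR it was 0.41 (adjusted p = 0.759).

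Pdp1, the phosphatase that reactivates pyruvate dehydrogenase, had signals of 1344, 1179 and 1129 on the AICAR arrays, 1327, 1074 and 1085 on the GW1516 arrays, and 1319, 1247 and 1256 on the combination arrays, against 1431, 1471 and 1899 on the vehicle arrays. Every treated array was below every vehicle array. The difference was -0.39 ± 0.117 in AICAR (adjusted p = 0.514), -0.46 ± 0.117 in GW1516 (adjusted p = 0.254) and -0.32 ± 0.117 in the combination (adjusted p = 0.337), and none passed the test. Me1, the cytosolic malic enzyme, differed by 0.30 ± 0.0817 in the combination (adjusted p = 0.191, or 0.0396 without the second GW1516 array). Slc25a1, the citrate carrier, differed by 1.01 ± 0.479 in AICAR (adjusted p = 0.73), with signals of 252, 459 and 779 that follow the order of the fat cell markers on these arrays. Sdha and Sdhb, subunits of succinate dehydrogenase, differed by -0.05 and -0.05 in AICAR, by -0.14 and -0.06 in GW1516 and by -0.04 and 0.19 in the combination. The other probe sets of Sdha gave 0.01 and -0.31 in AICAR, -0.02 and -0.51 in GW1516, and 0.15 and -0.30 in the combination. The second of each pair was dim, with signals of 42.4 to 89.9.

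Markers of muscle and of other cell types were read on the same arrays. All 14 skeletal muscle markers were tested, none was at a signal of 0, and their summed signal was 320204 to 328739 in AICAR, 302501 to 387714 in GW1516 and 347404 to 356301 in the combination, against 305430 to 314123 in vehicle. In the combination 14 of 14 were above vehicle, with a median of 0.20, while the median of the TCA cycle set was 0.05. The 11 fat cell markers tested of 14 listed summed to 23888 to 47388 in AICAR, 17688.5 to 39078 in GW1516 and 22771 to 41760 in the combination, against 20593 to 32186 in vehicle, and none was at 0. The 8 fibroblast and matrix markers summed to 26046.5 to 35695 in AICAR, 13837 to 28696 in GW1516 and 25443 to 26437 in the combination, against 24868 to 34239 in vehicle. The lowest fibroblast value was that of the second GW1516 array, which also had the lowest sum of the TCA cycle set, 104893 against 112655 or more on the other arrays. The part of these cell and fibre types in the values of the set was not tested.

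**Figure D5:**
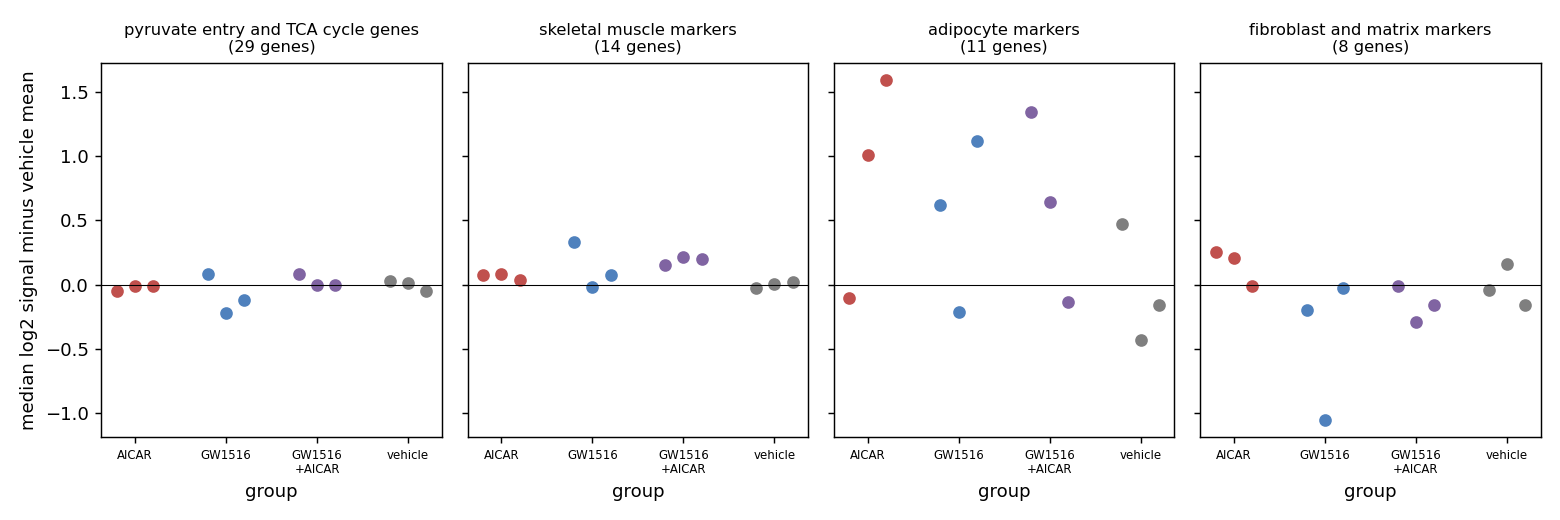
Median log2 signal minus the vehicle mean on each array (points, 3 for each group) for the 29 genes of the set, 14 skeletal muscle markers, 11 adipocyte markers and 8 fibroblast and matrix markers. The set stays between -0.22 and 0.09, while the adipocyte markers range from -0.43 to 1.59, and the second GW1516 array is lowest for the set and for the fibroblast markers.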

How the data were processed

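RNA of quadriceps muscle was measured on 12 arrays, 3 in each of 4 groups taken from the sample titles. Per the submitters' processing notes, the deposited intensity values are MAS5 signals, on a linear scale; no version is stated, and detection calls were left aside. Gene symbols came from GEO's annotation of the array, which can be old; they were checked against the GRCm38.p6 RefSeq gene table, which changed 0. Signals below 1 were set to 1 and log2 was taken. The dimmest 40% of probe sets, below 28.2, were left out, and the brightest probe set stood for each gene. limma 3.58.1 in R 4.3.3 fitted a mean per group over all 12 arrays, with variances moderated along mean signal (residual degrees of freedom 8, prior 5.91). Tests were two-sided, adjusted over 12771 genes by the Benjamini-Hochberg method, with a threshold of 0.05. There were 7 contrasts: 3 with vehicle, which share its arrays, 3 between treatments, and the interaction. Precision is limited by the number of arrays. The code was tested on simulated data.

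The members, gene lists, tests and alternatives were chosen with earlier results of these data known. Genes were named by rule: per comparison with vehicle the 3 of smallest p in each direction, per other contrast the 2 of smallest p, a fixed set of enzymes, and neighbours called or of smallest p. Comparing member proteins was planned and was not done here.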

Additional observations from a re-analysis of the deposited data

How the results depend on the processing

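The alternatives changed scaling, filter, probe set choice, variance model or arrays. Of 46 values of named genes, 28 kept their sign under every alternative run for them (22, or 21 for Me2 and for the interaction) and 18 changed it under at least 1. Averaging a gene's probe sets turned the sign of Got2 in GW1516 (0.089), Idh3b in AICAR against GW1516 (-0.042) and in AICAR (-0.071), Gpt2 in AICAR against GW1516 (0.042), the interaction of Got2 (-0.0054) and small values of Ogdh, Pdha1 and Cs. The averages of Got2 and of Idh3b each include a dim probe set. Median centring shifted the median of all genes by -0.11 in AICAR and by -0.08 in the combination; the median of the set in AICAR was then -0.13, and 5 (AICAR) and 10 (combination) of 29 genes were above 0, against 18 and 18 with quantile normalization, while relative to the median of all genes 10 and 22 were above under centring, as without it. Mdh1 was the 1 gene of the set called in the combination when only the groups compared were fitted. Genes called over all genes in AICAR against vehicle were 4 with quantile normalization, a pseudocount of 32, a filter of 60% or the replicate block, 0 without the variance trend, 15 with array weights and 28 with only the groups compared. In GW1516 they were 7 with the mean of probe sets, 0 without trend and 2 with only the groups compared. In the combination they were 18 without a filter, 2 without trend, 92 with array weights and 16 with the replicate block. For the combination against AICAR they were 2 with quantile normalization, median centring, no filter or the mean of probe sets, and 1 with the replicate block. For the combination against GW1516 it was 1 without trend. For AICAR against GW1516 they were 20 with median centring and 2 with a pseudocount of 32 or array weights. The F test called 25 with median centring, 0 without trend and 45 with array weights. Leaving out each array in turn gave 0 to 8 genes called in AICAR, 0 to 41 in GW1516, 10 to 95 in the combination, 1 to 10 in the combination against AICAR, 0 to 10 in the combination against GW1516, 0 to 2 in AICAR against GW1516, 0 to 0 in the interaction and 7 to 38 in the F test. Genes of the set called were 0 to 1 in the combination, in the combination against GW1516 and in the F test, and 0 in the other comparisons; the 1 was Mdh1 without GW1516 replicate 1. The median of the set ranged from -0.049 to 0.016 in AICAR, -0.16 to 0.0027 in GW1516 and -0.013 to 0.082 in the combination. The cause of these changes was not tested. Replicate numbers did not pair the arrays: 0 of 18 pairs with the same number correlated above 0.1, from -0.11 to 0.07. With the replicate block, 0 genes of the set were called, and Pdk4 in the combination had an adjusted p of 0.0787. Me2 could not be tested under the filter of 60%.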
